A study of Mus musculus with 31 samples.

Results

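The mitochondrially encoded genes are the 37 genes carried by the mouse mitochondrial genome itself, 13 for proteins, 2 for ribosomal RNAs and 22 for transfer RNAs. They were taken as all rows of the gene count table whose mouse symbol starts with mt-, which gave 37 of 55492 rows. The rule used the symbol alone and no measured value. Of the 37 genes, 33 passed the filter on low counts and entered the tests, namely 13 of 13 protein-coding, 2 of 2 rRNA and 18 of 22 tRNA genes. The 4 that did not pass were mt-Td, mt-Tk, mt-Tc and mt-Ts1. The filter asks for a level of 0.317 CPM (counts relative to library size) in at least as many libraries as the smallest group has. mt-Tg reached it in 15 of 15 VFDM and 0 of 16 VF libraries and mt-Ts2 in 8 VF and 0 VFDM libraries, so each passed through the genotype in which it is higher. mt-Th reached it in 4 VF and 2 VFDM libraries and mt-Tn in 4 VF and 1 VFDM libraries, so the VFDM libraries alone would not have let them pass.

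The mitochondrial genome is a small circle that is transcribed from both strands into long RNAs covering many genes, which are then cut into single rRNAs, mRNAs and tRNAs. The tRNA genes lie between most of the other genes, and excision of the tRNAs frees the mRNAs and rRNAs on either side. All the encoded proteins are core subunits of the respiratory chain or of ATP synthase, and they are made inside the organelle with its own rRNAs and tRNAs. Long-term haematopoietic stem cells are known for keeping their respiration low while quiescent and raising it as they divide and differentiate.

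RNA was sequenced from LT-HSCs, the long-term haematopoietic stem cells of the marrow, isolated as lineage-negative, Sca1-positive, Kit-positive, CD150-positive and CD48-negative cells. The marrow came from wild-type mice that had received either VF or VFDM marrow together with a 10-fold excess of wild-type marrow. VF stands for SclCre;FF1;GFP, a line in which Cre driven by Scl control elements acts on the human JAK2-V617F transgene FF1, and VFDM for the same alleles with Dnmt3Δ/Δ, a deletion of Dnmt3a on both chromosomes, so that by the labels JAK2-V617F is shared by all groups and Dnmt3a separates VF from VFDM. GFP is not among the sort markers the labels give, so that cells of the wild-type competitor or host within the gate cannot be told apart from transplanted mutant cells. Treatment began 4 weeks after transplantation and lasted 8 weeks, with vehicle, with pegylated interferon alpha at 25 ug/kg under the skin once a week (IFN), with 5-azacytidine, a cytidine analogue that blocks DNA methyltransferases, at 2 mg/kg into the peritoneum daily (AZA), or with both at those doses (COMBO). There were 31 libraries in 8 groups of 4, except 3 for VFDM COMBO, whose replicates are numbered 2, 3 and 4. Whether libraries stem from separate animals is not stated, so p-values measure the spread between libraries.

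Libraries held 17782394 to 73910928 counts. VF vehicle libraries 1 and 4 stood apart in the mitochondrial genes themselves, as described next, and rows of small and ribosomal RNAs took 22.3%, 24.9%, 8.49% and 37.5% of counts in the 4 VF vehicle samples in order, against 5.02% to 10.5% in the other 27 libraries. The library labelled VFDM IFN 3 went against its label, with Dnmt3a at 162 CPM (after TMM scaling) where the other 14 VFDM libraries had 23.0 to 120 CPM and the 16 VF libraries 104 to 297 CPM. The table also has rows for CreERT2 and pEGFP. CreERT2 was at 66.9 to 173 CPM in VF, at 153 to 244 CPM in the other 14 VFDM libraries and at 113 CPM in the library labelled VFDM IFN 3, and pEGFP at 110 to 325, 301 to 1031 and 251 CPM. These transgene rows therefore also differed in level between the genotypes, and their part in the genotype results was not tested. Counts of calls and group values of mitochondrial genes that use the VFDM IFN group are also given without that library. All 8 LT-HSC markers checked, among them Procr, Hlf and Mecom, had at least 1 count in every library, Procr down to 0.0315 CPM, and Cd48, the negative gate, was at 2.01 to 22.8 CPM. In bulk samples, fewer cells with a transcript and less of it per cell cannot be told apart.

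The 37 genes took 6.28% to 11.8% of all counts in 29 of the 31 libraries. VF vehicle libraries 1 and 4 lay far below, at 1.82% and 0.859%, while VF vehicle libraries 2 and 3 had 9.54% and 11.8%. The other 7 groups were narrow beside this group. VF IFN libraries had 9.35% ± 0.177 (SD, n = 4), VF AZA 8.13% ± 1.26 (n = 4), VF COMBO 7.59% ± 0.420 (n = 4), VFDM vehicle 9.89% ± 0.572 (n = 4), VFDM IFN 8.58% ± 0.733 (n = 4; 8.27% ± 0.496 without the library labelled VFDM IFN 3, n = 3), VFDM AZA 8.45% ± 0.158 (n = 4) and VFDM COMBO 8.27% ± 0.619 (n = 3). VF vehicle libraries therefore ranged on both sides of every other library, and their mean of 6.01% ± 5.48 (n = 4) describes none of them. The plot of counts by library shows the same spread.

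**Figure D1:**
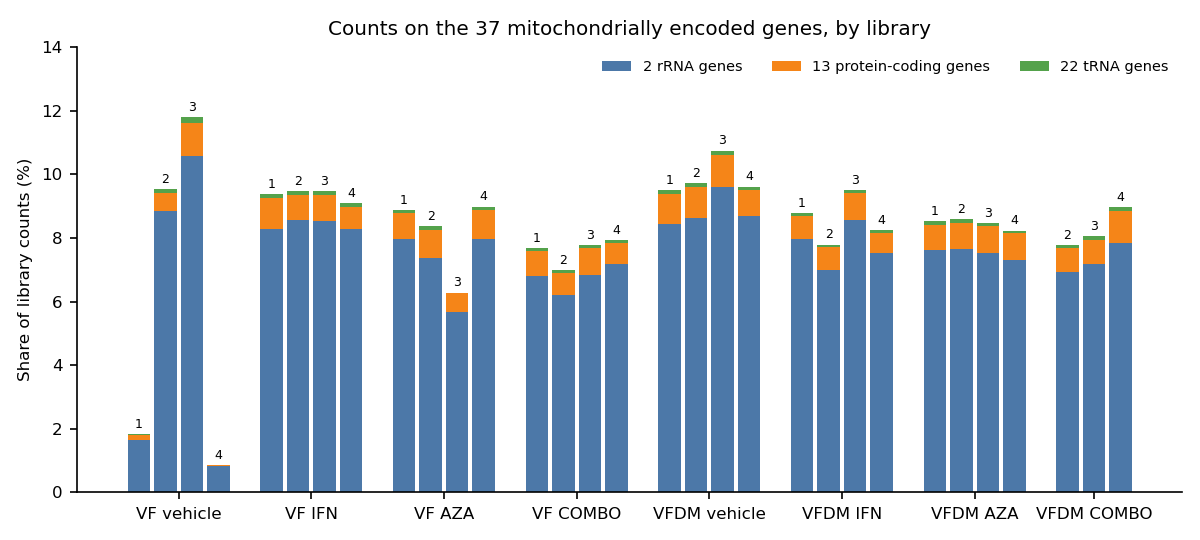
Share of each library's counts (y axis, percent) that fell on the 37 mitochondrially encoded genes, stacked by class, with 1 bar per library and the replicate number above it. All bars reach 6.28% or more except VF vehicle 1 and 4, and the 2 rRNA genes make up most of every bar.

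The 2 rRNA genes, which give the RNAs of the small and the large subunit of the mitochondrial ribosome, dominated every library. mt-Rnr1 (12S) and mt-Rnr2 (16S) together held 87.6% to 94.9% of the counts on the 37 genes, the 13 protein-coding genes 4.87% to 11.2% and the 22 tRNA genes 0.236% to 1.62%. mt-Rnr1 lies at chrM:70-1024 and mt-Rnr2 at chrM:1094-2675 on the plus strand (mm10, as are all positions here). Their median levels per length were 28411 and 29325 CPM per kilobase. The ratio of mt-Rnr2 to mt-Rnr1 per length stayed between 0.751 and 1.18 in the 31 libraries, with VF vehicle 4 lowest and VF vehicle 1 at 0.958. Both genes were low together in the 2 libraries with a low share.

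Among the 13 protein-coding genes the subunits of complex I (NADH dehydrogenase) are mt-Nd1 to mt-Nd6 and mt-Nd4l, complex III has mt-Cytb, complex IV (cytochrome oxidase) mt-Co1 to mt-Co3, and ATP synthase mt-Atp6 and mt-Atp8. As deposited, mt-Co1 was highest per length with a median of 1455 CPM per kilobase, followed by mt-Cytb at 1348 and mt-Nd4l at 1259. mt-Nd1 (725), mt-Nd4 (703), mt-Nd5 (687) and mt-Nd6 (504 CPM per kilobase) formed a middle group, with mt-Nd2 at 372. The ranges over libraries overlapped between all neighbours in this order. The remaining rows were far lower, mt-Nd3 at 68.4, mt-Atp8 at 3.39, mt-Co2 at 2.25, mt-Atp6 at 1.85 and mt-Co3 at 1.67 CPM per kilobase, although mt-Co2 and mt-Co3 belong to the same enzyme as mt-Co1.

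Of these low rows, mt-Nd3, mt-Co2, mt-Atp6 and mt-Co3 have a near-identical copy in the nuclear genome, as do mt-Nd4l, mt-Nd4 and part of mt-Co1 among the higher rows. A stretch of chromosome 1, chr1:24611535-24616197 on the minus strand (4663 bases), carries 7 unprocessed pseudogenes whose sequence matches the mitochondrial stretch chrM:6381-11042. Of the 37 genes, 11 lie inside that stretch, 6 for proteins (mt-Co2, mt-Atp8, mt-Atp6, mt-Co3, mt-Nd3 and mt-Nd4l) and 5 for tRNAs (mt-Ts1, mt-Td, mt-Tk, mt-Tg and mt-Tr), while mt-Co1 and mt-Nd4 are covered in part. Gm28661 matches mt-Co2, Gm10925 mt-Atp6, Gm28437 mt-Co3, Gm10222 mt-Nd4l and Gm28439 the start of mt-Nd4 without a mismatch over the aligned bases. Gm29216 differs from the end of mt-Co1 at 6 of 492 bases and Gm28438 from mt-Nd3 at 1 of 345.

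Counts were divided very unequally between the mitochondrial rows and these copies. Of the counts on a gene and its copy together, the mitochondrial row held a median of 0.174% for mt-Co2, 0.0901% for mt-Atp6 and 0.207% for mt-Co3. For mt-Nd4l and mt-Nd4 the mitochondrial rows held 99.4% and 99.7%, for mt-Co1 77.7% and for mt-Nd3 59.6%. How reads with several mapping positions were counted is not given in the sources used here. Levels of these 7 genes are therefore uncertain as deposited, and a copy's own transcription cannot be told apart from that of its mitochondrial original. The other genes inside the stretch, mt-Atp8 and the 5 tRNA genes (mt-Tg among them), have no copy row. Their levels may also depend on how such reads were counted, which was not tested.

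With each copy added to its original, mt-Atp6 was highest at a median of 2115 CPM per kilobase, then mt-Co1 at 1863, mt-Co2 at 1369, mt-Cytb at 1348, mt-Nd4l at 1265 and mt-Co3 at 797. mt-Nd3 came to 134 CPM per kilobase and remained below the other complex I subunits. mt-Atp8 stayed at 3.39 CPM per kilobase (median count 22), since no row was found that matches it, although it lies in the copied stretch between mt-Co2 and mt-Atp6. The 13 genes made up 0.0419% to 1.04% of library counts as deposited, and 0.0669% to 1.55% with the copies.

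**Figure D2:**
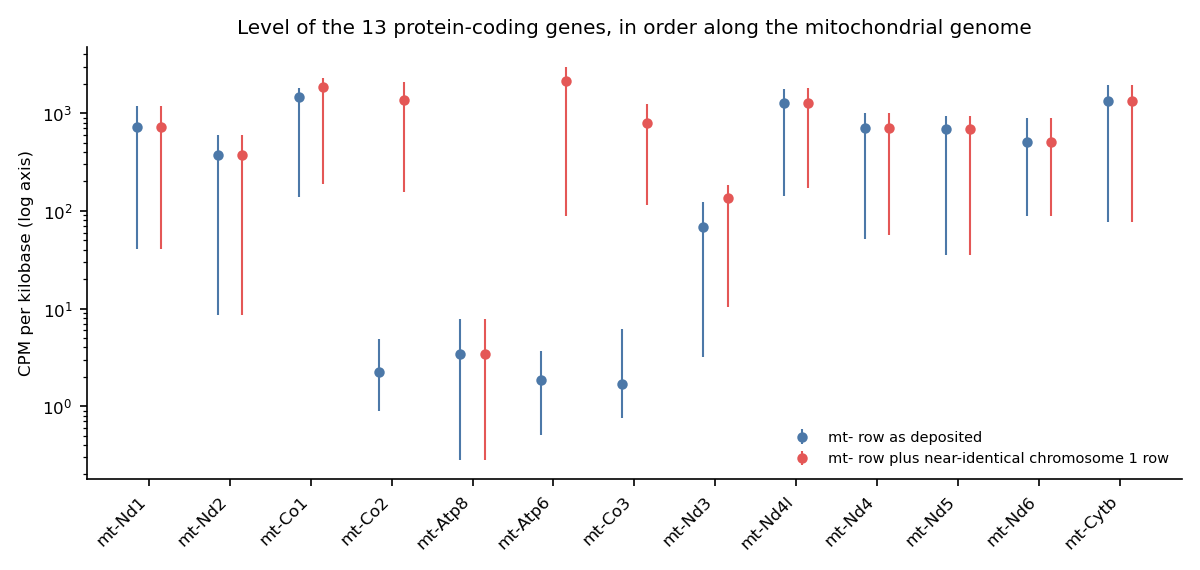
Level of the 13 protein-coding genes in CPM per kilobase (log axis) as deposited and with the near-identical chromosome 1 row added, in genome order, with points for the median and bars from the lowest to the highest of 31 libraries. mt-Co2, mt-Atp6 and mt-Co3 move from under 3 to 797 or more once the copy is added, and mt-Atp8 stays low.

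Of the 22 tRNA genes, mt-Tv, the tRNA for valine at chrM:1025-1093 between the 2 rRNA genes, took 76.0% to 93.5% of the class in every library. Its median level per length was 13410 CPM per kilobase. mt-Tl1, a leucine tRNA on the far side of mt-Rnr2, came next at 480, followed by mt-Tf, the phenylalanine tRNA before mt-Rnr1, at 222 and the glutamate tRNA mt-Te at 178 CPM per kilobase. mt-Tl2 was at 110 CPM per kilobase, and mt-Tm, mt-Tw, mt-Tt, mt-Ty and mt-Tp lay between 49.3 and 71.1. mt-Tr, mt-Tq and mt-Ti had 26.1, 17.5 and 16.4 CPM per kilobase. mt-Tg was at 5.06, mt-Ta at 2.31, mt-Ts2 at 1.38, mt-Th at 0.628 and mt-Tn at 0.555 CPM per kilobase. Neighbours in this order overlapped over the libraries. The 4 untested ones had counts in 10 (mt-Tk), 11 (mt-Tc), 16 (mt-Ts1) and 18 (mt-Td) of 31 libraries. The tRNA genes are 59 to 75 bases long, and fragments of longer precursors that overlap them are counted in the same rows. The sequence of mt-Tv and of mt-Tg, the glycine tRNA whose level differed between the genotypes, is given from GENCODE vM21 transcripts with the anticodon in capitals.
mt-Tv: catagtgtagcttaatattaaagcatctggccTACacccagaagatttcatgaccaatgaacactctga
mt-Tg: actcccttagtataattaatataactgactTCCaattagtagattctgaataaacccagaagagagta

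Treatment was compared with vehicle within each genotype to ask whether the drugs moved mitochondrial transcripts. In the VF background none of the 33 tested genes was called with IFN, AZA or COMBO (edgeR quasi-likelihood test, Benjamini-Hochberg adjusted p under 0.05 over 22172 rows). The shares called among all rows tested were 2.43%, 1.2% and 8.29%. At an unadjusted p under 0.05 the counts among the 33 genes were 0, 0 and 3. The 3 smallest p with IFN belonged to mt-Nd1, mt-Nd2 and mt-Co1 (log2 fold changes of 0.89 ± 0.50 SE, 0.98 ± 0.57 and 0.69 ± 0.42, with adjusted p of 0.535, 0.557 and 0.594). With AZA they belonged to mt-Tg (adjusted p = 0.478), mt-Co3 (−1.16 ± 0.69, 0.484) and mt-Nd4l (0.69 ± 0.42, 0.497), and with COMBO to mt-Tg (adjusted p = 0.0587), mt-Tp (−1.57 ± 0.67, 0.139) and mt-Co3 (−1.47 ± 0.70, 0.189). The mt-Co3 row holds a median of 0.207% of the counts on it and its copy Gm28437. That copy was at 0.11 ± 0.43 with AZA and 0.0087 ± 0.43 with COMBO. No gene's VF treatment and VF vehicle libraries failed to overlap, where 6.02% of all tested rows were lower and 7.28% higher without overlap with IFN, 4.38% and 2.27% with AZA, and 8.8% and 3.54% with COMBO.

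The spread of the VF vehicle group was wide for these genes. With vehicle, mt-Rnr1 was at 6907 and 5056 CPM in libraries 1 and 4 and at 43163 and 40700 CPM in libraries 2 and 3. VF IFN libraries had 33007, 32899, 32359 and 32274 CPM, VF AZA libraries 29530, 24271, 19866 and 28449 CPM, and VF COMBO libraries 24774, 22308, 24729 and 27034 CPM. Every treated VF library therefore lay between the 2 low and the 2 high vehicle libraries. The median log2 fold change of the 33 genes was 0.65 with IFN, 0.52 with AZA and 0.05 with COMBO, where the median of all tested rows was −0.02, −0.07 and −0.11.

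Without VF vehicle libraries 1 and 4, an alternative added after these values were seen, the 2 rRNA genes had the opposite direction. The 2 libraries were left out for being low in these same genes. For mt-Rnr1 every treated VF library lay below the 2 that remain, so this choice set the direction in advance. The calls and p-values of this setting therefore cannot measure an effect of treatment. mt-Rnr2 was then lower with IFN (log2 fold change −0.47, edgeR adjusted p = 0.00489). mt-Rnr1 and mt-Rnr2 were lower with AZA (−0.70 and −0.64, each with an adjusted p of 0.000446) and with COMBO (−0.74 and −0.73, adjusted p of 8.82e-05 and 1.61e-05), and mt-Nd6 was lower with COMBO (−0.997, adjusted p = 0.0172). That is 1, 2 and 3 of 33 genes called, where 0.886%, 0.488% and 1.55% of all rows tested were called. Of the 33 genes, 25 had a negative fold change with IFN, 28 with AZA and 30 with COMBO, against 6, 8 and 15 with all 4 vehicle libraries. The control then consists of 2 libraries, and library 2 of the pair has the 24.9% share of small and ribosomal RNA rows; its part in the result was not tested.

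In the VFDM background, whose 4 vehicle libraries were close to each other, no gene was called in any of the 3 treatments, against 0.965% (IFN), 0.925% (AZA) and 16% (COMBO) of all tested rows, and none had an unadjusted p under 0.05. The 3 smallest p belonged to mt-Th, mt-Nd3 (log2 fold change −0.66 ± 0.51 SE) and mt-Nd5 (−0.53 ± 0.49) with IFN, each with an edgeR adjusted p of 1. With AZA they belonged to mt-Nd6 (−0.56 ± 0.42, adjusted p = 0.800), mt-Ti (0.854) and mt-Tp (−0.67 ± 0.66, 0.871), and with COMBO to mt-Tl2 (−1.19 ± 0.73, 0.293), mt-Nd6 (0.337) and mt-Tl1 (0.65 ± 0.52, 0.449). The median log2 fold changes of the 33 genes were −0.27, −0.21 and −0.13, where all rows had −0.01, −0.04 and −0.08. All 13 protein-coding genes had a negative fold change with IFN (mt-Co3 was at 0.14 without the library labelled VFDM IFN 3, and the median of the 33 genes at −0.34), 10 of 13 with AZA and 10 of 13 with COMBO, and both rRNA genes were negative in all 3. mt-Rnr1 was at 28685, 31682, 34198 and 31264 CPM with vehicle, at 28388, 26430, 33539 and 27133 CPM with IFN, at 26536, 26358, 26845 and 23931 CPM with AZA and at 25566, 24859 and 27434 CPM with COMBO. Its AZA and COMBO libraries were all below every vehicle library, and its IFN libraries overlapped them.

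mt-Rnr2 followed the same order, with 53428 ± 3254 CPM (SD, n = 4) under vehicle, 46893 ± 4990 (n = 4) under IFN (44681 ± 2826 without the library labelled VFDM IFN 3, n = 3), 46103 ± 472 (n = 4) under AZA and 46745 ± 4045 CPM (n = 3) under COMBO. For AZA the log2 fold changes were −0.28 ± 0.40 for mt-Rnr1 and −0.21 ± 0.42 for mt-Rnr2 (SE, edgeR adjusted p of 0.925 and 0.952). For COMBO they were −0.28 ± 0.43 and −0.19 ± 0.46 (0.744 and 0.844). With AZA 3 genes were lower without overlap (mt-Rnr1, mt-Rnr2 and mt-Ti) and mt-Tl1 was higher, where 7.94% and 5.11% of all rows did so. With COMBO 4 were lower (mt-Rnr1, mt-Rnr2, mt-Tl2 and mt-Nd6) and 3 higher (mt-Nd1, mt-Nd2 and mt-Tw), where the shares of all rows were 23.4% and 13.3%. With IFN mt-Tv and mt-Nd3 were lower without overlap and none was higher, against 6.97% and 5.87% of all rows. Without the library labelled VFDM IFN 3, 12 were lower (mt-Rnr1, mt-Rnr2, mt-Tv, mt-Ti, mt-Nd1, mt-Co1, mt-Atp6, mt-Nd3, mt-Nd4l, mt-Nd4, mt-Nd5 and mt-Cytb) and none higher, against 9.45% and 7.63% of all rows.

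The spread in this test is shared by all 31 libraries, including VF vehicle 1 and 4. In a fit on the 2 compared VFDM groups alone, 3 genes were called lower with IFN, mt-Nd3 (−0.66, adjusted p = 0.0132), mt-Cytb (−0.45, 0.0272) and mt-Nd5 (−0.53, 0.0287). Without the library labelled VFDM IFN 3, a setting added after seeing the data, 8 were called lower in that fit, where 4.07% of all rows were. They were mt-Nd5 (−0.64, adjusted p = 0.00992), mt-Cytb (−0.53, 0.0126), mt-Nd4 (−0.47, 0.0167), mt-Nd4l (−0.41, 0.0238), mt-Nd3 (−0.58, 0.0312), mt-Co1 (−0.31, 0.0372), mt-Nd1 (−0.33, 0.0400) and mt-Rnr2 (−0.25, 0.0435). In the fits on 2 groups mt-Rnr1 and mt-Rnr2 were called lower with AZA (−0.28 and −0.21, adjusted p of 0.0382 and 0.0446), and mt-Rnr1 and mt-Nd6 with COMBO (−0.27 and −0.70, adjusted p of 0.0214 and 0.0135). The shares called among all rows, with every library, were 5.65%, 2.56% and 25.9%. The fold changes of these genes differed little between the fits. Leaving out the library labelled VFDM IFN 3 from the fit on all groups left the count with IFN at 0 of 33, where 0.778% of all rows were called.

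**Figure D3:**
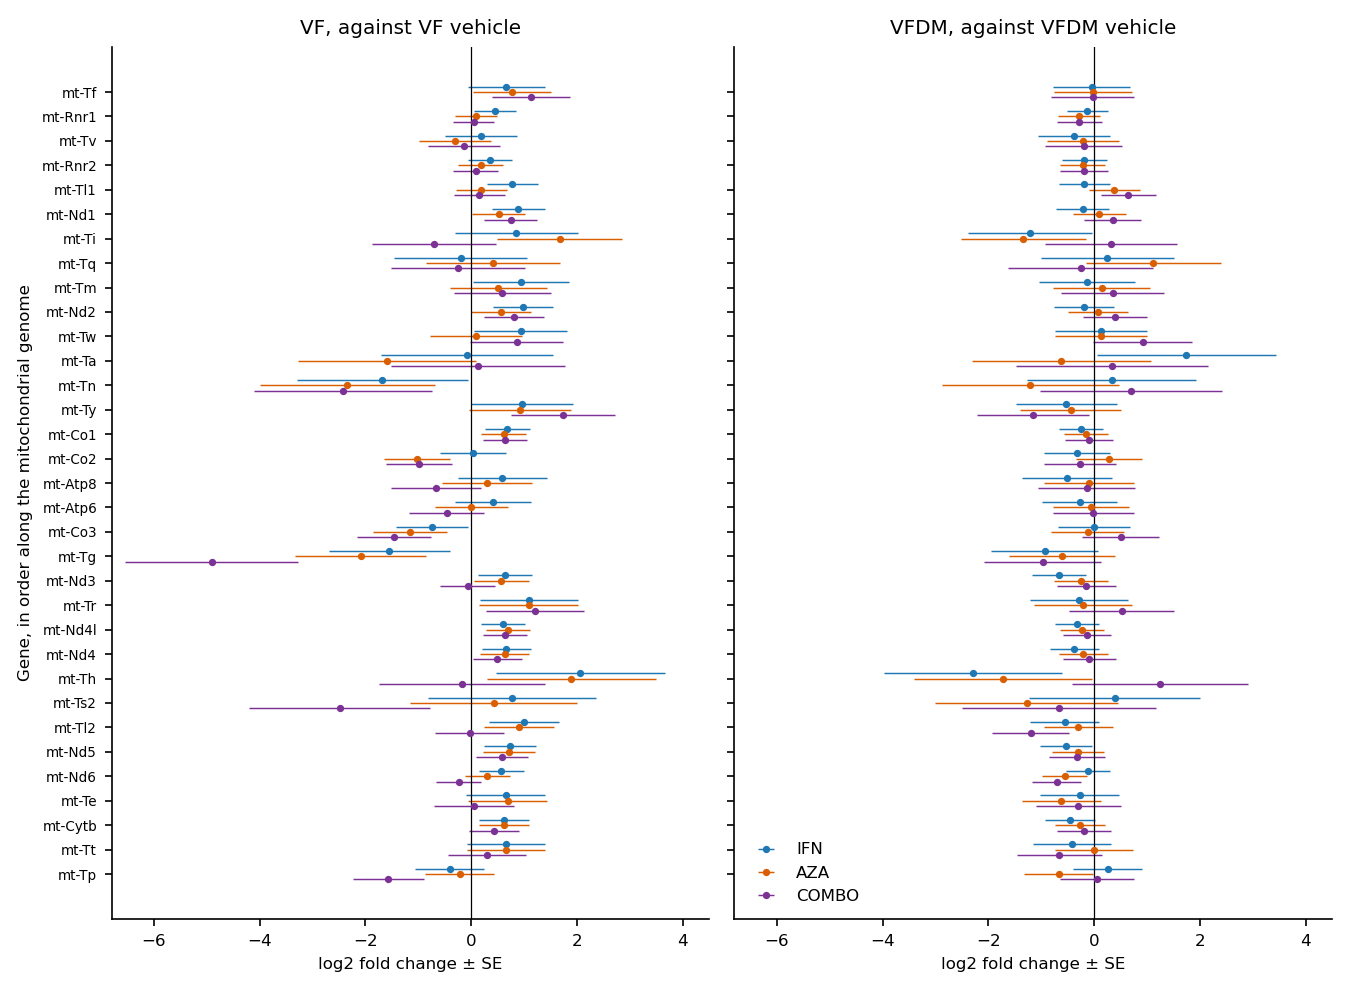
Log2 fold change (points) and SE (bars) of each of the 33 tested genes against the vehicle group of the same genotype, in genome order, for IFN, AZA and COMBO. VF values mostly lie to the right of 0 with IFN and AZA and VFDM values to the left, no gene was called, and the value of mt-Tg in VF COMBO rests on 4 libraries with no count.

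mt-Nd6 encodes the sole protein on the other strand of the mitochondrial genome (chrM:13552-14070, minus strand). Its share of the 13 protein-coding genes does not depend on library scaling. The share was taken as deposited, without the chromosome 1 copies that hold most counts of mt-Co2, mt-Atp6 and mt-Co3. The strand setting of the counting is not given, so the share need not compare transcription of the strands. With vehicle it made up 4.67%, 4.40%, 4.42% and 7.82% of the class in VF libraries 1 to 4 and 2.85%, 3.59%, 3.64% and 4.505% in VFDM libraries. With COMBO it made up 1.98%, 2.76%, 2.68% and 3.21% in VF and 2.09%, 2.51% and 2.49% in VFDM. In both genotypes every COMBO library lay below every vehicle library. The mean difference was −2.67 percentage points in VF (exact permutation test, two-sided, p = 0.0286, the smallest value that 4 against 4 allows) and −1.29 in VFDM (p = 0.0571, the smallest that 3 against 4 allows), and over the 6 treatment comparisons both had an adjusted p of 0.171.

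With AZA the shares were 4.69%, 2.39%, 4.86% and 3.13% in VF and 3.84%, 3.25%, 2.35% and 1.87% in VFDM, and with IFN 2.72%, 4.60%, 4.88% and 4.70% in VF and 4.98%, 3.88%, 4.25% and 3.76% in VFDM. These overlapped vehicle in both genotypes, with exact permutation p of 0.286 and 0.2 for AZA and 0.543 and 0.257 for IFN (0.286 in VFDM without the library labelled VFDM IFN 3). The mt-Nd6 level itself was 325 ± 42.4 CPM (SD, n = 4) with VFDM vehicle and 199 ± 43.7 CPM (n = 3) with VFDM COMBO, a log2 fold change of −0.71 ± 0.46 (edgeR adjusted p = 0.337). In VF it was 78.4, 319, 462 and 45.6 CPM with vehicle and 155, 185, 224 and 205 CPM with COMBO. The VF vehicle libraries again lay on both sides of the treated ones.

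**Figure D4:**
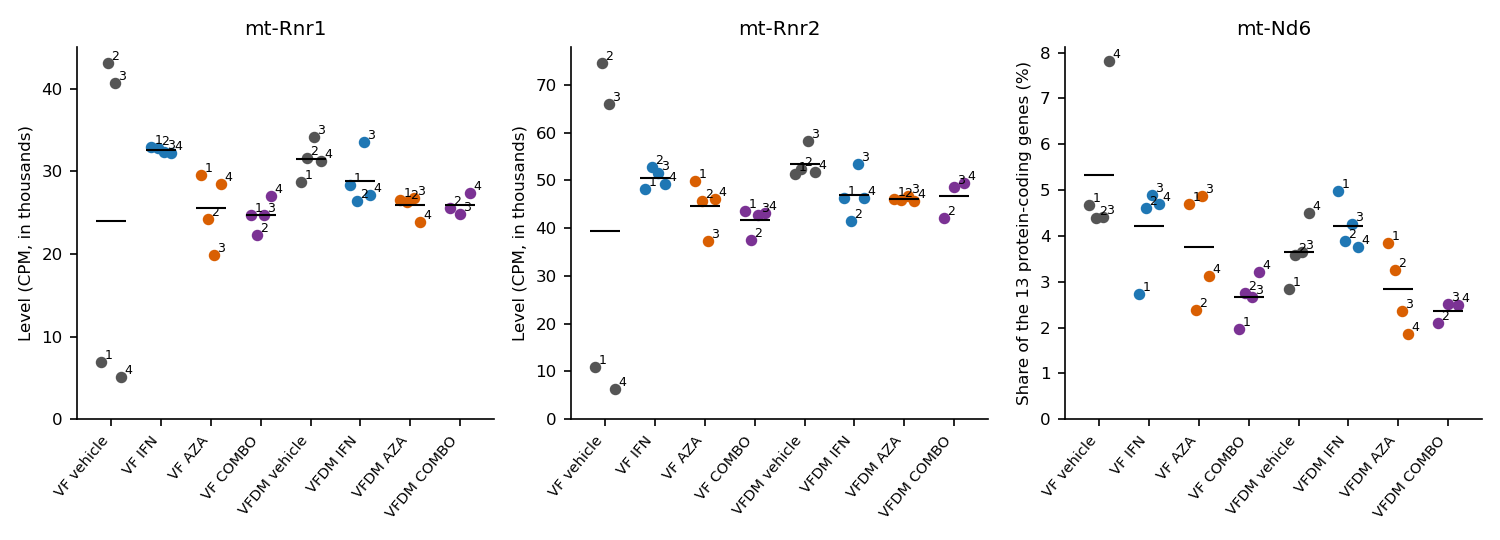
Level of mt-Rnr1 and mt-Rnr2 (y axes in CPM, scaled down as labelled) and share of mt-Nd6 among the 13 protein-coding genes in percent, with 1 point per library, its replicate number and a line at each group mean. VF vehicle 1 and 4 have 6907 and 5056 CPM of mt-Rnr1 where every other library has 19866 or more, and the COMBO points of mt-Nd6 lie below all vehicle points of their genotype.

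COMBO was also compared with each drug alone. No gene was called in the 4 comparisons, where 0.00902% (VF, against IFN), 1.85% (VF, against AZA), 7.88% (VFDM, against IFN) and 7.82% (VFDM, against AZA) of all rows were called. The 3 smallest p belonged to mt-Tg, mt-Nd6 and mt-Ts2 (VF, against IFN; edgeR adjusted p of 0.434 to 0.480), mt-Tp, mt-Ti and mt-Tg (VF, against AZA; 0.301 to 0.389), mt-Th, mt-Tl1 and mt-Nd6 (VFDM, against IFN; 0.251 to 0.519) and mt-Th, mt-Ti and mt-Tl2 (VFDM, against AZA; 0.354 to 0.526). In VF, 9 of the 33 genes were lower with COMBO than with IFN in every library (mt-Rnr1, mt-Rnr2, mt-Co2, mt-Atp8, mt-Atp6, mt-Nd3, mt-Tl2, mt-Nd6 and mt-Tp), where 8.31% of all rows were. Among them mt-Co2, mt-Atp6 and mt-Nd3 share counts with a copy and mt-Atp8 lies in the copied stretch. mt-Rnr1 was at 24711 ± 1930 CPM with COMBO and 32635 ± 372 CPM with IFN (SD, n = 4 each, log2 fold change −0.40 ± 0.40 SE, adjusted p = 0.738). This comparison does not use VF vehicle. In VFDM, 4 genes were higher with COMBO than with IFN in every library (mt-Tl1, mt-Nd1, mt-Nd2 and mt-Atp8, against 6.98% of all rows), and in a fit on those 2 groups alone mt-Tl1 (0.89, adjusted p = 0.0269) and mt-Nd1 (0.62, 0.0406) were called, where 8.62% of all rows were. Without the library labelled VFDM IFN 3 both were again called in that fit (0.95 and 0.72, adjusted p of 0.0483 and 0.0308, where 5.3% of all rows were), none in the fit on all groups (6.5% of all rows), and 7 were higher in every library (mt-Co1, mt-Nd4 and mt-Cytb in addition) and none lower, against 9.07% and 16.3% of all rows. Against AZA, mt-Ti and mt-Atp8 were lower with COMBO in every VF library (2.55% of all rows), and in VFDM mt-Nd2 was higher and mt-Tt lower (5.77% and 9.14%).

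No gene's response to IFN, AZA or COMBO was called as different between the genotypes (interaction terms of the edgeR fit; 0.0%, 0.582% and 3.74% of all rows were called), and 0, 0 and 1 of the 33 had an unadjusted p under 0.05. The 3 smallest p belonged to mt-Th, mt-Nd5 and mt-Nd3 for IFN (edgeR adjusted p of 0.996 to 1), to mt-Ti, mt-Nd4l and mt-Th for AZA (0.551 to 0.635) and to mt-Tg, mt-Ty and mt-Co3 for COMBO (0.222 to 0.273). The median differences, VFDM minus VF, were −0.92 (−0.996 and no call of any row without the library labelled VFDM IFN 3), −0.49 and −0.24. Without VF vehicle 1 and 4 they were −0.16, 0.18 and 0.57, and mt-Rnr2 (0.57, adjusted p = 0.0136) and mt-Tl1 (1.37, 0.0167) were then called for COMBO, where 1.42% of all rows were. As these libraries were left out for their low mitochondrial values, the calls cannot measure a difference in response. None was called for IFN or AZA in that setting, against 0.0% and 0.302% of all rows.

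Of the 33 tested genes, mt-Tg alone was called between the genotypes. It was called under vehicle, AZA and COMBO and averaged over treatments, where 0.956%, 0.74%, 5.11% and 2.37% of all rows were. Under IFN, where 0.00902% of all rows were called, it was not. A count of 1 is not a result about the 33 genes together. mt-Tg, the mitochondrial tRNA that carries glycine, lies at chrM:9391-9458 on the plus strand between mt-Co3 and mt-Nd3, and its sequence stands above. This place is inside the stretch copied on chromosome 1, so the mt-Tg level may depend on how reads with several mapping positions were counted. In the 16 VF libraries it had 0 to 6 counts, and 8 of them had none. In the 15 VFDM libraries it had 9 to 241 counts. No VF library reached the lowest VFDM library in any treatment when levels were compared within treatment. Since mt-Tg entered the tests through the VFDM libraries alone, its p-values below describe a row that the filter had taken for being high in VFDM. With no filter, where the row is tested whatever its level, the edgeR adjusted p was 0.0537 under vehicle, 0.443 under IFN, 0.00878 under AZA, 0.00118 under COMBO and 1.26e-08 averaged over treatments.

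Under vehicle mt-Tg was at 0, 0.0647, 0.0359 and 0.347 CPM in VF and at 3.43, 4.14, 5.29 and 3.01 CPM in VFDM (log2 fold change 5.20 ± 1.22 SE, edgeR adjusted p = 0.0305). Under IFN it was at 0, 0.0406, 0.0591 and 0.0267 CPM in VF and at 1.94, 3.86, 0.344 and 2.17 CPM in VFDM (5.82 ± 1.26, adjusted p = 0.293, and 0.0846 without the library labelled VFDM IFN 3, where 0.0452% of all rows were called, and 0.0130 in a fit on those 2 groups alone without it, where 0.125% were; mt-Th and mt-Co2 followed with an adjusted p of 1). That library, at 0.344 CPM, was the lowest of all VFDM libraries. Under AZA VF had 0.0198, 0, 0 and 0.0638 CPM and VFDM 4.68, 4.26, 0.608 and 0.908 CPM (adjusted p = 0.00559). Under COMBO all 4 VF libraries had no count and VFDM had 3.63, 0.518 and 1.91 CPM (adjusted p = 0.000902). Averaged over the 4 treatments the adjusted p was 3.03e-07, and 1.73e-07 without the library labelled VFDM IFN 3 (2.15% of all rows called). The shares of all rows called as higher in VFDM were 0.171% under vehicle, 0.00902% under IFN, 0.636% under AZA, 1.2% under COMBO and 0.794% for the average, and in either direction 0.956%, 0.00902%, 0.74%, 5.11% and 2.37%. Besides mt-Tg, mt-Nd3 was higher in every VFDM library under vehicle (6.34% of all rows were), mt-Tl1 under AZA (2.35%, and mt-Ti was lower, 2.15%), and mt-Nd3, mt-Atp8 and mt-Tp under COMBO (3.63%), none of them called.

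Pooled over libraries, mt-Tg had 660 counts in VFDM and 11 in VF under vehicle, a ratio of 49.3 after scaling for depth (exact 95% interval 27.4 to 99.2, counting error only). Under IFN it had 296 and 7 counts, a ratio of 58.2 (27.9 to 146), and 80.5 (38.6 to 202) without the library labelled VFDM IFN 3. Under AZA it had 269 and 3 counts, a ratio of 112 (37.9 to 546). Under COMBO it had 185 counts in VFDM and 0 in VF, so the ratio has no finite value, and its exact 95% interval starts at 62.2. By library, no count allows up to 0.0900 to 0.144 CPM in each VF library (3 counts per library). The VFDM mean was 16.6-fold the mean of these limits, a measure unlike the pooled ratios. Even the highest VFDM library was at a low absolute level, 5.29 CPM.

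The call of mt-Tg under vehicle was lost without VF vehicle 1 (edgeR adjusted p = 0.1), without VF vehicle 2 (0.0763) and without VFDM vehicle 1, 2, 3 or 4 (0.0743, 0.0767, 0.0951 and 0.0612), and the call averaged over treatments held in each fit that left out 1 library. The calls under AZA and COMBO were lost in fits on those 2 groups alone (adjusted p of 0.153 and 0.322, where 0.629% and 0.0% of all rows were called), and that under vehicle without VF vehicle 1 and 4 together (log2 fold change 6.25, adjusted p = 0.201, where 0.194% were). mt-Tg was higher in VFDM under each setting tried. Apart from the fit with no filter, these settings kept the filter that mt-Tg passes through VFDM libraries alone. They therefore do not test that direction anew.

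**Figure D5:**
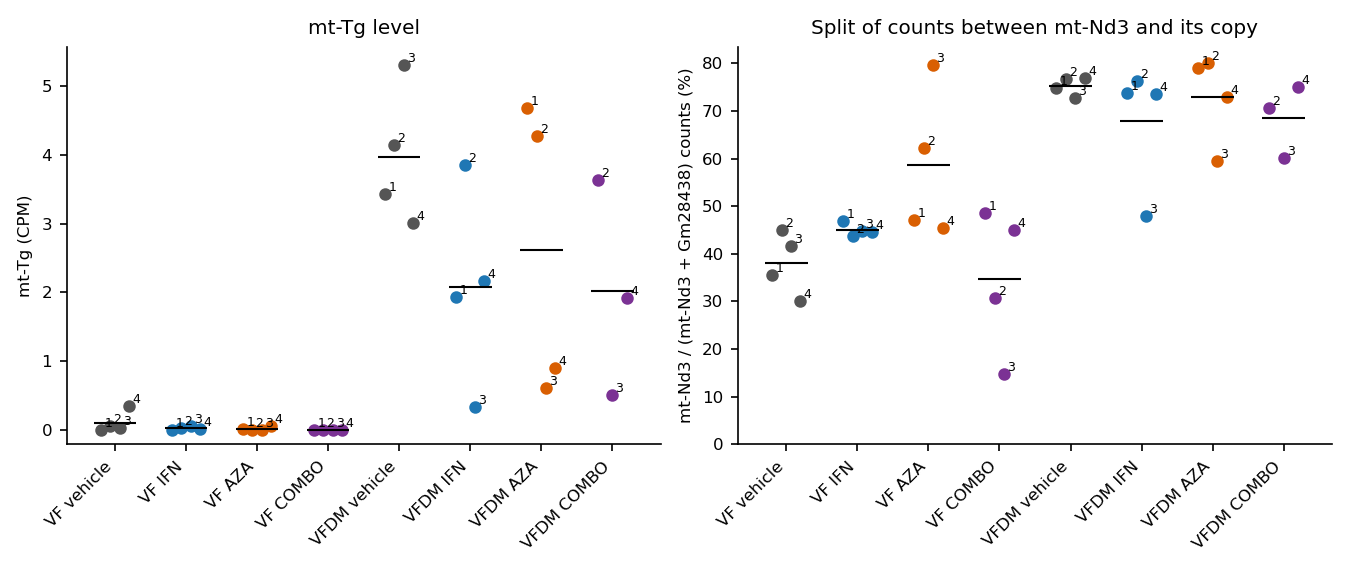
Left, mt-Tg level in CPM by library, and right, the percent of counts on mt-Nd3 and its chromosome 1 copy Gm28438 that fell on mt-Nd3, with replicate numbers and a line at each group mean. VFDM libraries are above VF libraries of the same treatment on the left, and on the right 14 of 16 VF libraries are below 50% and 14 of 15 VFDM libraries at 59.6% or more.

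mt-Nd3, the complex I subunit gene directly after mt-Tg (chrM:9459-9806, plus strand), also differed between the genotypes in the split of counts between it and its copy. Gm28438 (chr1:24612775-24613119, minus strand) differs from it by the single substitution T3C, counted from 1 at the first base of mt-Nd3, which is chrM position 9461. The first 60 bases of both are shown from GENCODE vM21 transcripts, with that base in capitals.
mt-Nd3: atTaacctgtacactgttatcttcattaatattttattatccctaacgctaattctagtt
Gm28438: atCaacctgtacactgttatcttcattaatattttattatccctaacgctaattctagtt

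The share of the pair's counts that fell on mt-Nd3 under vehicle was 35.5%, 45.01%, 41.7% and 30.2% in VF and 74.9%, 76.7%, 72.7% and 76.9% in VFDM. Under IFN VF libraries had 46.9%, 43.7%, 44.8% and 44.6%, and VFDM libraries 73.8%, 76.3%, 48.0% and 73.5%. The 48.0% is that of the library labelled VFDM IFN 3, with a Wilson 95% interval of 45.8% to 50.2%, and it lay nearer to the VF IFN libraries than to its own group. Under AZA VF libraries had 47.1%, 62.2%, 79.5% and 45.4%, and VFDM libraries 79.0%, 80.2%, 59.6% and 72.9%. Under COMBO VF libraries had 48.5%, 30.8%, 14.8% and 45.1%, and VFDM libraries 70.7%, 60.03% and 75.1%. VF AZA 2 and 3 were the VF libraries above 50%. VF AZA 3, the highest VF library, had 17942 detected rows, and VF COMBO 3, the lowest at 14.8%, had 17087, the fewest of all libraries.

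Over all libraries the share was 44.1% ± 13.99 (SD, n = 16) in VF and 71.4% ± 8.77 (n = 15) in VFDM, a difference of 27.2 percentage points (permutation test with 100000 resamples, two-sided, p = 4e-05). Libraries were permuted without regard to treatment, although the VF mean was 58.6% under AZA and 34.8% under COMBO. Without the library labelled VFDM IFN 3 the permutation test gave a difference of 28.9 points (p = 2e-05, the smallest that this number of resamples can give). This ratio was chosen after mt-Tg had been seen to differ. Within treatments the differences were 37.2 (vehicle), 22.9 (IFN), 14.3 (AZA) and 33.8 points (COMBO), with exact permutation p of 0.0286, 0.0286, 0.229 and 0.0571, of which the first, the second and the fourth are the smallest that their group sizes allow. Adjusted over the 4 comparisons they were 0.0572, 0.0572, 0.229 and 0.0761. Without the library labelled VFDM IFN 3 the difference under IFN was 29.5 points (exact permutation p = 0.0571).

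The sum of mt-Nd3 and Gm28438 overlapped between the genotypes. It was at 3.65 to 64.6 CPM in VF (median 48.3) and 31.5 to 57.1 CPM in VFDM (median 43.5), with a log2 fold change averaged over treatments of 0.12 (adjusted p = 0.907). mt-Nd3 alone had 0.84 ± 0.26 (SE, adjusted p = 0.0923) and Gm28438 alone −0.85 ± 0.28 (adjusted p = 0.114), so neither row passed the test by itself. No gene other than mt-Tg was called in these genotype comparisons, mt-Tr, the next tRNA in the copied stretch, included. Which base the libraries carry at position 9461, and whether a neighbouring difference bears on mt-Tg, was not tested.

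The direction of the 33 genes together depended on which VF vehicle libraries were used. Averaged over treatments the median log2 difference was 0.14 for the 33 genes and −0.05 for all rows, with 25 of 33 positive, but without VF vehicle 1 and 4 it was −0.03 with 15 of 33 positive. Under that setting mt-Nd3 passed the test (0.66, adjusted p = 0.0326) beside mt-Tg, so that 2 of 33 genes were called where 1.37% of all rows were. Under IFN, a comparison that does not use vehicle, 5 genes were lower in VFDM without overlap (mt-Tl1, mt-Co2, mt-Atp8, mt-Atp6 and mt-Th), where 2.9% of all rows were, and none was called. Among them mt-Th had passed the filter through VF libraries, so its lower VFDM values add nothing to that count. Without the library labelled VFDM IFN 3, 13 were lower (mt-Rnr1, mt-Rnr2, mt-Nd1, mt-Nd5, mt-Cytb, mt-Ti, mt-Tl2 and mt-Te in addition) and mt-Tg alone was higher, against 6.18% and 3.79% of all rows, again with no call in the fit on all groups. mt-Co2 had 2.69 ± 0.316 CPM in VF IFN and 1.32 ± 0.225 CPM in VFDM IFN (SD, n = 4 each, log2 fold change −1.03 ± 0.63 SE, edgeR adjusted p = 1), and 1.30 ± 0.271 CPM there without that library (n = 3). The mt-Co2 row holds a median of 0.174% of the counts on it and its copy Gm28661. That copy was at 1140 CPM in VF IFN and 843 CPM in VFDM IFN (−0.44 ± 0.43 SE). mt-Atp6 also shares counts with a copy, and mt-Atp8 lies in the copied stretch. The part of read assignment in these 3 rows was not tested.

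Nuclear genes supply everything else the mitochondrial genome needs, and 12 lists of them were compared. Under VFDM COMBO, 4 of 25 genes for processing and decay of mitochondrial RNA rose and none fell (list median 0.34, all rows −0.08), a share like the 16% of all rows called in this comparison. They were Rexo2, an oligoribonuclease (log2 fold change 1.10 ± 0.23 SE, edgeR adjusted p = 0.000996), Pnpt1, a polynucleotide phosphorylase (0.84 ± 0.19, 0.00178), Lrpprc, which stabilises mitochondrial mRNAs (0.57 ± 0.16, 0.0146), and Pde12 (0.67 ± 0.20, 0.0204). Of 16 nuclear ATP synthase genes Atpif1 (1.13 ± 0.23, 0.000762) and Atp5b (0.62 ± 0.14, 0.00241) rose, of 80 mitochondrial ribosomal proteins Mrpl12 (0.90 ± 0.20, 0.0018) and Mrpl52 (1.03 ± 0.27, 0.00789), and of 36 complex I genes Ndufs1 (0.47 ± 0.15, 0.0328). These counts lie below that share of all rows. Of 10 biogenesis regulators Tfe3, Pprc1 and Nrf1 rose, and Ppargc1a fell, from a mean of 4.04 CPM under vehicle to 0.0105 CPM, where 16% of all rows were called in either direction. Nsun2, Mars2, Hspd1 and Atf4 also rose, against the same 16% of all rows. None of 23 genes of mitochondrial DNA transcription, among them Tfam and Polrmt, passed the test in any of the 6 drug comparisons with vehicle. The mitochondrial rRNA and mRNA rows of the same libraries had no call in the fit on all groups. In the fit on those 2 groups alone mt-Rnr1 and mt-Nd6 were called lower, as given above, where 25.9% of all rows were called.

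Under VF COMBO 4 of the 25 processing genes rose as well (Pnpt1 0.81, Supv3l1 0.78, Elac2 0.64 and Lrpprc 0.50; list median 0.33, all rows −0.11), where 8.29% of all rows were called. Without VF vehicle 1 and 4 none was called, with a list median of 0.29 and all rows at −0.08. Lars2, the mitochondrial leucyl-tRNA synthetase, was lower with AZA (log2 fold change −2.64 ± 0.47 SE, edgeR adjusted p = 0.00334) and with COMBO (−2.81 ± 0.47, 0.000594) in VF, where 1.2% and 8.29% of all rows were called. Lars2 was still called lower with both without VF vehicle 1 and 4, where 0.488% and 1.55% of all rows were. Its VF vehicle mean was 3714 ± 2141 CPM (SD, n = 4), against 942 ± 788 CPM in VFDM vehicle (n = 4). Cox4i1, a nuclear complex IV subunit, was lower with IFN, AZA and COMBO in VF (−1.11, −0.97 and −1.06), where 2.43%, 1.2% and 8.29% of all rows were called. Cox4i1 was not called without VF vehicle 1 and 4. The share of small and ribosomal RNA rows was high in 3 of the 4 VF vehicle libraries, and its part in these results was not tested.

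Markers of cell types differed from vehicle in several groups. Under VFDM COMBO, where 16% of all rows were called, 5 of 8 LT-HSC markers fell, and 8 of 9 erythroid, 3 of 8 neutrophil and monocyte, 2 of 5 T and NK and 3 of 4 B cell markers rose. The summed LT-HSC markers were at 705 to 869 CPM, against 1729 to 1958 CPM under VFDM vehicle, and the summed erythroid markers at 1868 to 16345 CPM, against 486 to 500 CPM. Under VF COMBO, where 8.29% of all rows were called, 2 of 8 LT-HSC markers fell and 1 rose, and 3 of 9 erythroid, 3 of 5 T and NK and 1 of 4 B cell markers rose. The summed megakaryocyte markers were at 1006 to 1272 CPM in VF IFN against 323 to 512 CPM in VF vehicle, and at 652 to 1324 CPM in VFDM IFN, with or without the library labelled VFDM IFN 3, and 741 to 801 CPM in VFDM AZA against 167 to 434 CPM in VFDM vehicle. Pf4, a platelet factor among the 6 megakaryocyte markers, rose in these 3 groups (log2 fold changes of 2.42, 3.32 and 2.52), where 2.43%, 0.965% and 0.925% of all rows were called. Without VF vehicle 1 and 4, Pf4 was the only 1 of the 6 called with VF IFN. Ly6a, which encodes Sca1 of the sorting gate, rose with IFN in both genotypes and with AZA in VFDM (1.85, 1.98 and 1.82). Ly6a is among the 8 LT-HSC markers, whose sum went the other way in VFDM. Its median was 1403 CPM in VFDM IFN and 1498 CPM in VFDM AZA, against 1842 CPM in VFDM vehicle. Every VFDM IFN and VFDM AZA library lay below every VFDM vehicle library in this sum. In VF the IFN and vehicle libraries overlapped. S100a8 and S100a9 of the 8 neutrophil and monocyte markers rose under VFDM IFN (tests with all 4 libraries), where 0.965% of all rows were called. The sum of the 8 was at 157 to 515 CPM there, highest in VFDM IFN 4, against 96.6 to 163 CPM under VFDM vehicle. The T cell genes Cd3e, Cd3g and Trbc2 were at 0 in 22, 22 and 21 of 31 libraries. The part of these markers in the drug values of mt-Nd6, the rRNA genes, the other mitochondrial genes and the nuclear lists was not tested.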

How the data were processed

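The deposited table held raw counts per gene (55492 rows) for 31 libraries of total RNA made with a stranded SMART-Seq kit, per the labels. FastQC 0.11.5, STAR 2.7.10a, featureCounts, R 4.3.0 and the build mm10 are named in the submitters' processing notes. No source used here gives the annotation, strand setting or treatment of multimapping reads. Groups followed the labels. Rows were filtered (edgeR filterByExpr, minimum count 10, minimum total 15), which left 22172, scaled by TMM, and tested with edgeR 4.0.16 (R 4.3.3) robust quasi-likelihood, 1 mean per group over all 31 libraries, 18 comparisons, Benjamini-Hochberg adjusted p under 0.05. CPM used TMM-scaled library sizes, and SE is the log2 fold change divided by the root of F. limma 3.58.1 voom, DESeq2 1.42.0, other scalings and filters, and fits without single libraries were alternatives. Shares were compared by permutation tests (SciPy 1.17.1). The fit was tested on simulated data. Intervals are Wilson or exact, at 95%, and cover counting error only, since no molecular identifiers are given. Copies were found among GENCODE vM21 transcripts by shared 25-base words (at least 80%). All 37 genes are accounted for; in each comparison called genes are named, otherwise the 3 with the smallest p, and up to 4 genes per nuclear list with a call. The members and lists were chosen with earlier results of these data known.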

Additional observations from a re-analysis of the deposited data

Results flagged for a closer look

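In 49 groups of 4 libraries tested for a single library far from the other 3, 5 were found, where chance gives about 1 in 20 (Dixon's test at 95%). VFDM vehicle 3 had 10.7% of counts on the 37 genes, the others 9.51% to 9.71%, and 0.139% on the 22 tRNA genes, the others 0.117% to 0.121%. VF vehicle 4 had an mt-Nd6 share of 7.82%, the others 4.40% to 4.67%, and VF IFN 1 a share of 2.72%, the others 4.60% to 4.88%. The library labelled VFDM IFN 3 had 48.0% of the mt-Nd3 and Gm28438 counts on mt-Nd3, the others 73.5% to 76.3%.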

How the results depend on the processing

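Of the 33 genes, those called without VF vehicle 1 and 4 (left out after being seen low in these same genes) numbered 1 for VF IFN, 2 for VF AZA, 3 for VF COMBO, 0 for genotype under vehicle, 2 for genotype averaged and 2 for the COMBO interaction. With the compared groups alone they numbered 3 for VFDM IFN, 2 for VFDM AZA, 2 for VFDM COMBO, 2 for VFDM COMBO against IFN, and 0 for genotype under AZA and under COMBO, and when the library labelled VFDM IFN 3 was also left out (chosen after seeing the data) 8 for VFDM IFN, 2 for VFDM COMBO against IFN and 1 for genotype under IFN. With limma voom there were 2 for VFDM IFN, 2 for genotype under vehicle, 1 under IFN and 2 averaged. With DESeq2 there were 1 for VF COMBO, 1 for genotype under IFN, 2 averaged and 1 for the COMBO interaction, and with no filter 0 for genotype under vehicle. Leaving out 1 library gave 0 to 2 for VF COMBO, 0 to 3 for genotype under vehicle (3 without VF vehicle 3) and 1 to 2 averaged. The cause was not tested. Replicate numbers did not pair the libraries (correlations of same-numbered deviations −0.12 to 0.17, 7 of 31 libraries closest to their own number). A replicate block left the counts at 1 for genotype under vehicle, AZA, COMBO and averaged and at 0 elsewhere.

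Without VF vehicle 1 and 4 the log2 fold changes with IFN, AZA and COMBO were −0.35, −0.70 and −0.74 for mt-Rnr1 and −0.47, −0.64 and −0.73 for mt-Rnr2, and −0.21 (IFN) and −0.47 (AZA) for mt-Nd6. Leaving out 1 library gave, with AZA, −0.23 to 0.55 for mt-Rnr1, −0.16 to 0.69 for mt-Rnr2 and −0.025 to 0.92 for mt-Nd6, and with COMBO −0.27 to 0.51, −0.25 to 0.61 and −0.55 to 0.38. Without VF vehicle 1, mt-Rnr1 was at −0.20 (AZA) and −0.23 (COMBO) and mt-Rnr2 at −0.11 and −0.19. limma voom gave −0.10 and −0.018 for mt-Rnr1 and mt-Rnr2 with VF COMBO. mt-Nd3 with its copy added was at −0.48 for genotype under IFN.

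As a percent of nuclear protein-coding counts the 37 genes came to 12.9 (VF IFN), 10.6 (VF AZA), 9.90 (VF COMBO), 13.4 (VFDM vehicle), 11.4 (VFDM IFN), 11.1 (VFDM AZA) and 11.1 (VFDM COMBO), and in VF vehicle 1 to 4 to 2.69, 16.7, 16.8 and 1.56. Without small and ribosomal RNA rows they came to 10.3% (VF IFN), 8.12% (VF COMBO), 10.6% (VFDM vehicle), 9.03% (VFDM AZA) and 8.97% (VFDM COMBO). With copies added, shares of the 13 protein-coding genes were 5.91% (mt-Nd1), 3.19% (mt-Nd2), 25.6% (mt-Co1), 8.24% (mt-Co2), 0.0065% (mt-Atp8), 12.6% (mt-Atp6), 5.51% (mt-Co3), 3.44% (mt-Nd4l), 8.68% (mt-Nd4), 10.7% (mt-Nd5) and 13.2% (mt-Cytb). The 4 tRNA rows that failed the filter and mt-Tg in VF, at 0 to 6 counts, rest on few counts. Of these, mt-Ts1, mt-Td, mt-Tk and mt-Tg lie in the stretch copied on chromosome 1. The part of depth and of read assignment in these low counts was not tested.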
